A study of Homo sapiens with 15 samples.

Results

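The 9 genes described here encode the enzymes that write and erase DNA methylation, with the main cofactors of each step: DNMT1, DNMT3A, DNMT3B, DNMT3L, UHRF1, TET1, TET2, TET3 and TDG. They were taken by name, not by their values, from the 23346 gene symbols of a count table, and all 9 were present. The choice was made with earlier results of these data known. The libraries were bulk RNA-seq of H9, an established line of human embryonic stem cells, with 3 libraries per day (replicates 1, 2 and 4) at 5 time points and 15 libraries in all. Day 0 cells were labelled undifferentiated and came from E8 medium. Day 1 cells had received activin A, a ligand of the Nodal receptors, together with CHIR99021, an inhibitor of GSK3 that switches on Wnt signalling, for 24 hours. Day 2, day 3 and day 4 cells had then received activin A alone, all in Advanced RPMI 1640. The protocol text gives the activin A phase as 4 days after those 24 hours, although the last samples are day 4, so days are those of the sample titles. The change of medium coincides with the first day of treatment, so medium and treatment cannot be told apart in any comparison with day 0. Every library came from the same line, and the labels do not say whether replicates were separate cultures, so the p-values measure the spread between these libraries.

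In vertebrate DNA, methyl groups sit mostly on cytosines of CG dinucleotides. DNMT3A and DNMT3B place new marks, with DNMT3L as a partner that has no catalytic activity of its own, and after replication UHRF1 binds CG sites methylated on a single strand and brings DNMT1 there to copy the mark. TET1, TET2 and TET3 oxidise methylcytosine, and TDG cuts out the further oxidised forms so that base excision repair can restore an unmodified cytosine. Human pluripotent cells are known for high levels of DNMT3B. Methylation itself was not measured here: every value below is an RNA level.

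Libraries held 54723184 to 145857940 counts. Levels are given as CPM, counts scaled to a common library size after TMM, which corrects library sizes for differences in composition. Of the definitive endoderm markers, SOX17 ran between 74.6 and 246 CPM on day 4 against 0.695 to 1.01 CPM on day 0, and the summed level of the 8 markers ran between 1396 and 5214 CPM on day 4 against 64.8 to 74.8 CPM on day 0. Replicate 1 of days 3 and 4 stood apart from its group in some markers. EOMES, of the primitive streak list, was at 60.3 CPM in it on day 3, against 452 and 326 CPM in replicates 2 and 4. On day 4 EOMES was at 81.6 CPM, against 373 and 376 CPM. The endoderm markers CER1 and GATA6 were also lowest in replicate 1 on both days. SOX17 was lowest in it on day 4 but not on day 3, at 121 CPM against 103 and 224 CPM. Replicate 4 had more of the pluripotency gene POU5F1 than replicates 1 and 2 on day 0 and on each of days 2, 3 and 4. On day 0 POU5F1 was at 765 CPM in replicate 4, against 319 and 262 CPM, and on day 4 at 119 CPM, against 16.9 and 28.0 CPM. NANOG and SOX2 were also highest in replicate 4 on days 3 and 4, but not on day 2, and on day 0 both were lowest in it. DPPA4, another pluripotency marker, was lowest in replicate 4 on every day. It was at 501 CPM in it on day 0 against 834 and 906 CPM, and at 104 CPM on day 4 against 125 and 108 CPM. Markers of other cell types were not all absent on day 4. The 6 trophoblast and amnion markers summed to 26.6 to 124 CPM on day 4 against 0.723 to 1.87 CPM on day 0, with 4 of the 6 under 1 CPM in every day 4 library and GATA3 at 24.1 to 103 CPM. The 6 neural and surface ectoderm markers summed to 3.30 to 61.7 CPM on day 4 against 1.07 to 3.46 CPM on day 0, with 4 under 1 CPM and PAX6 at 2.34 to 60.5 CPM. The 6 blood and endothelium markers summed to 11.02 to 15.7 CPM on day 4 against 1.68 to 2.44 CPM on day 0. The 6 mesoderm markers summed to 76.4 to 295 CPM on day 4 against 122 to 227 CPM on day 0, with HAND1 at 27.2 to 109 CPM on day 4 against 0.666 to 1.23 CPM on day 0. The 8 primitive streak markers summed to 104 to 926 CPM on day 4 against 6.89 to 10.4 CPM on day 0. The 6 extraembryonic endoderm markers summed to 885 to 1289 CPM on day 4 against 442 to 513 CPM on day 0. Of these 6, SPARC was at 808 to 1210 CPM on day 4 and APOA1 at 56.6 to 98.1 CPM, and 2 were under 1 CPM in every day 4 library. The part of such cells in the results below was not tested. In bulk RNA, fewer cells of a type and less RNA per cell cannot be told apart.

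The DNA methylation genes changed by a loss of the de novo methyltransferases DNMT3A and DNMT3B at the first step, a later gain of TET2 and, by day 3, a loss of UHRF1. A change was called when the adjusted p was under 0.05 in edgeR's quasi-likelihood test, with Benjamini-Hochberg adjustment over the 17401 genes that passed the filter on low counts. All 9 genes passed it. Fold changes are on the log2 scale, later day minus earlier day, with their standard error (SE). On day 1 against day 0, 2 of 9 were called, DNMT3A and DNMT3B, both lower, where 10.4% of all tested genes were called, 5.49% higher and 4.88% lower. On day 2 against day 0 it was 3 of 9, with TET2 higher, against 20.7% of all genes, 11.6% higher and 9.16% lower. On day 3 against day 0 it was 5 of 9, TET2 higher and DNMT3A, DNMT3B, UHRF1 and TDG lower, against 33.9% of all genes, 17.9% higher and 16% lower. On day 4 against day 0 it was 4 of 9, the same without TDG, against 34.2%, 18% higher and 16.2% lower. Over the 5 days jointly, DNMT3A, DNMT3B, UHRF1, TET2 and TDG were called, 5 of 9 where 37.3% of all genes were. The median log2 fold change of the 9 genes on day 4 against day 0 was -0.44, beside -0.02 for all tested genes. With 9 genes, these shares are a description and carry no test.

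Between consecutive days after day 1 the tests found little. On day 2 against day 1 only TET2 was called among the 9, where 8.27% of all genes were, 4.93% higher and 3.34% lower. On day 3 against day 2 edgeR called none of the 9 and 0.948% of all genes, 0.661% higher and 0.287% lower, although 3 of the 9 had an unadjusted p under 0.05, and DESeq2, a second count test, called UHRF1 and TDG lower. On day 4 against day 3 edgeR called none of the 9 and 0% of all genes, and DESeq2 called none of the 9 and 70 genes in all. The unadjusted p in edgeR was under 0.05 for none of the 9 and for 1074 of all genes.

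**Figure D1:**
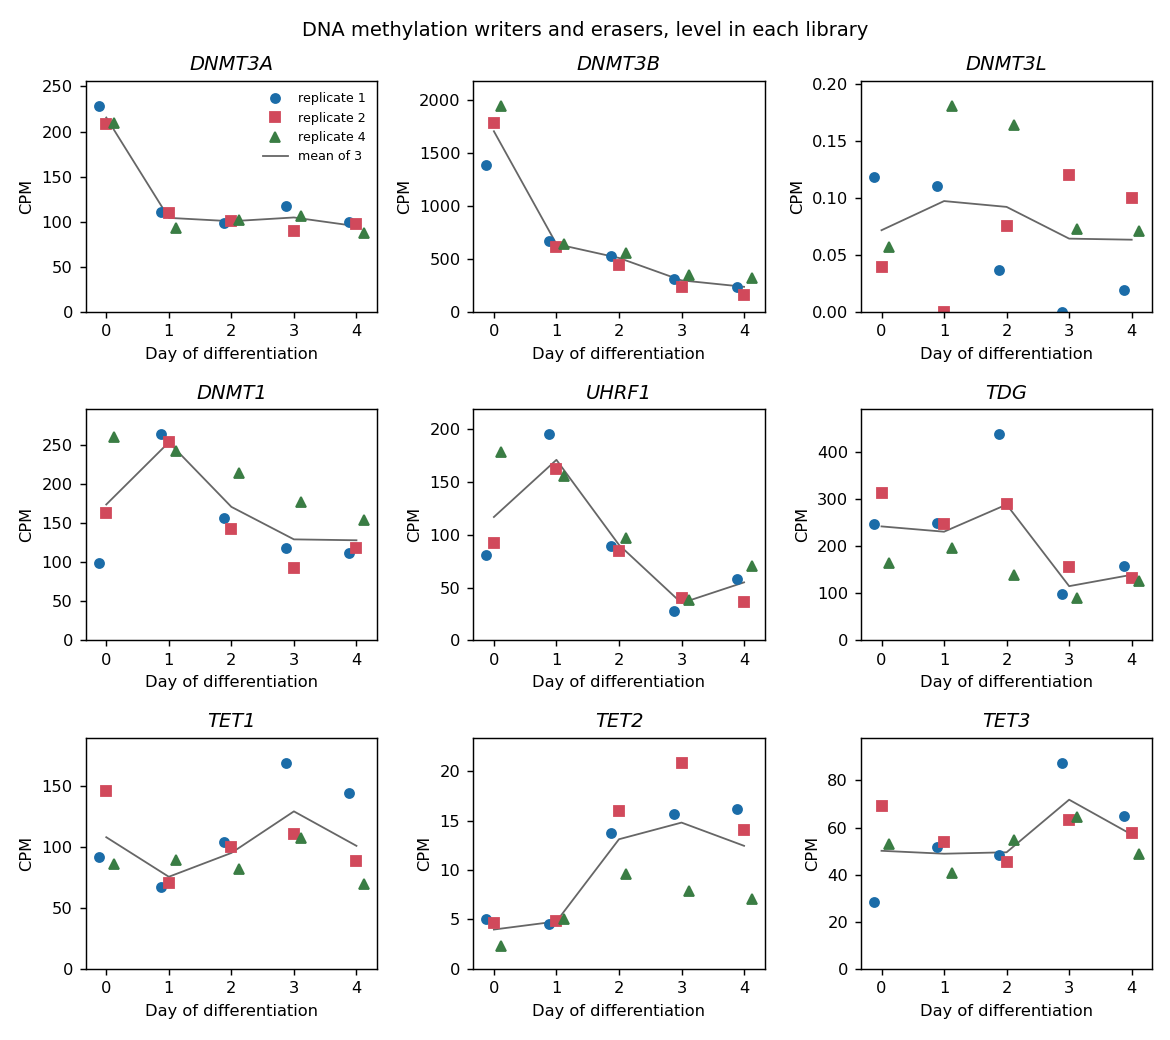
Level of each of the 9 genes in CPM (vertical axis, linear, a scale per gene starting at 0) by day of differentiation (horizontal axis), with a point per library, a marker shape per replicate number and a line through the mean of 3 libraries. DNMT3B and DNMT3A are lower in every library of days 1 to 4 than in any of day 0, and TET2 is higher in every library of days 2 to 4 than in any of days 0 and 1.

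DNMT3B, the predominant de novo methyltransferase of pluripotent cells, had the largest fall of the 9 genes. Its level was 1388, 1785 and 1948 CPM in replicates 1, 2 and 4 of day 0, and 673, 610 and 640 CPM on day 1. It was 529, 441 and 559 CPM on day 2, 314, 235 and 345 CPM on day 3, and 230, 162 and 318 CPM on day 4. Every library of days 1 to 4 lay below every library of day 0, and the days did not overlap with their neighbours until days 3 and 4. On day 1 DNMT3B fell to 641 ± 31.5 CPM, against 1707 ± 288 CPM on day 0 (SD, n = 3 each), a log2 fold change of -1.41 (SE 0.28, adjusted p = 0.00314). On day 4 it averaged 237 ± 78.4 CPM, a log2 fold change of -2.85 against day 0 (SE 0.29, adjusted p = 5.33e-06), or 7.21-fold lower. The fall after day 1 was spread over several days, and no single step of it was called: the log2 fold change was -0.33 on day 2 against day 1 (adjusted p = 0.521), -0.78 on day 3 against day 2 (adjusted p = 0.189) and -0.33 on day 4 against day 3 (adjusted p = 0.934). Replicate 4 had the highest DNMT3B of its day on day 0 and on days 2, 3 and 4, at 318 CPM on day 4. On those days it also had the highest POU5F1 and the lowest DPPA4, and the part of either in its DNMT3B level was not tested.

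DNMT3A, the second active de novo enzyme, fell in a single step and then stayed near its new level. It was at 229, 209 and 210 CPM in the day 0 libraries and at 111, 109 and 92.7 CPM on day 1. It was at 98.9, 101 and 101 CPM on day 2, at 118, 89.8 and 107 CPM on day 3 and at 100.2, 97.4 and 87.5 CPM on day 4. All 12 later libraries lay between 87.5 and 118 CPM, below every day 0 library. On day 1 it averaged 104 ± 10.0 CPM, against 216 ± 11.3 CPM on day 0 (SD, n = 3 each), a log2 fold change of -1.05 (SE 0.22, adjusted p = 0.00462). On day 4 against day 0 the log2 fold change was -1.18 (SE 0.22, adjusted p = 7.68e-04). The consecutive differences after day 1 were -0.05, 0.06 and -0.14 on the log2 scale, each smaller than its SE of 0.21.

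DNMT3L, the catalytically inactive cofactor of DNMT3A and DNMT3B, which in the mouse is known from germ cells and early embryos, was close to undetected. It had 10, 4 and 6 counts in the day 0 libraries, 8, 0 and 20 on day 1, 4, 6 and 12 on day 2, 0, 8 and 6 on day 3 and 2, 10 and 4 on day 4. With 100 counts over all 15 libraries and 2 libraries at 0, no difference between days was detectable at this depth.

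**Figure D2:**
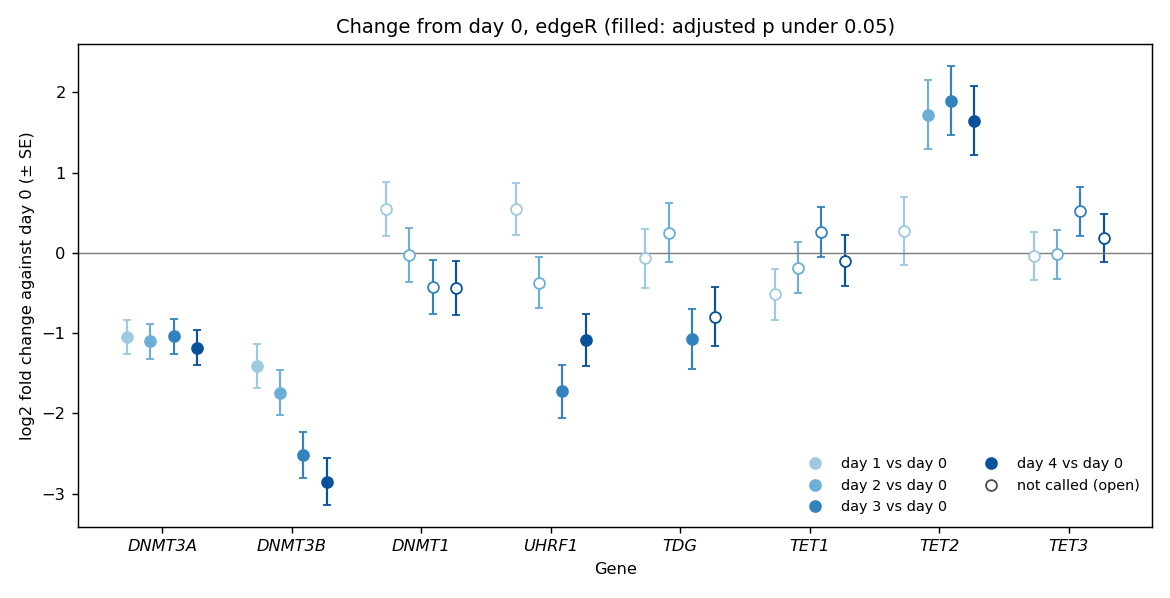
Log2 fold change of each gene except DNMT3L, which is not drawn, against day 0 (vertical axis) for days 1, 2, 3 and 4. Bars are 1 SE, and points are filled where the adjusted p is under 0.05 and open where it is not. DNMT3B goes stepwise down to -2.85, DNMT3A lies at about the same value on every day, UHRF1 is filled on days 3 and 4 only, and TET2 is the only gene with filled points above 0.

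The balance of DNMT3A and DNMT3B also shifted within libraries. The ratio of DNMT3A to DNMT3B counts was 0.165, 0.117 and 0.108 in the day 0 libraries, 0.165, 0.179 and 0.145 on day 1, 0.187, 0.230 and 0.181 on day 2, 0.375, 0.382 and 0.310 on day 3 and 0.435, 0.602 and 0.275 on day 4. Day 1 overlapped with day 0, and every library of days 2 to 4 lay above every day 0 library. The mean log2 ratio was -1.93 ± 0.65 over the 12 libraries of days 1 to 4 pooled (SD). On day 0 it was -2.97 ± 0.33 (SD, n = 3). The difference was 1.04, with p = 0.0220 in an exact two-sided permutation test, whose smallest possible p is 0.00220. The 12 libraries are not replicates of a single condition: the daily means were -2.62, -2.33, -1.50 and -1.27 on days 1 to 4. Their SD includes the change between days, and the test sets the pool of days against day 0. Without replicate 2 or replicate 4 of day 0 the difference was 0.98 or 0.92, and the exact permutation p was 0.0769 for each. A ratio of counts within a library does not depend on library scaling, but it compares genes of different length.

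Per kilobase of exon, with lengths from a newer annotation than the one behind the counts, DNMT3B led the methyltransferases on every day. Its share of the summed level of DNMT1, DNMT3A, DNMT3B and DNMT3L per kilobase was 87.8% on day 0, 71.1% on day 1, 73.0% on day 2, 66.0% on day 3 and 60.3% on day 4. The share of DNMT1 was 7.32%, 23.9%, 20.7%, 23.9% and 28.5% on the same days, and that of DNMT3A was 4.92%, 4.99%, 6.28%, 10.1% and 11.1%. The summed level of the family was 83.5 CPM per kilobase on day 4, against 421 CPM per kilobase on day 0.

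**Figure D3:**
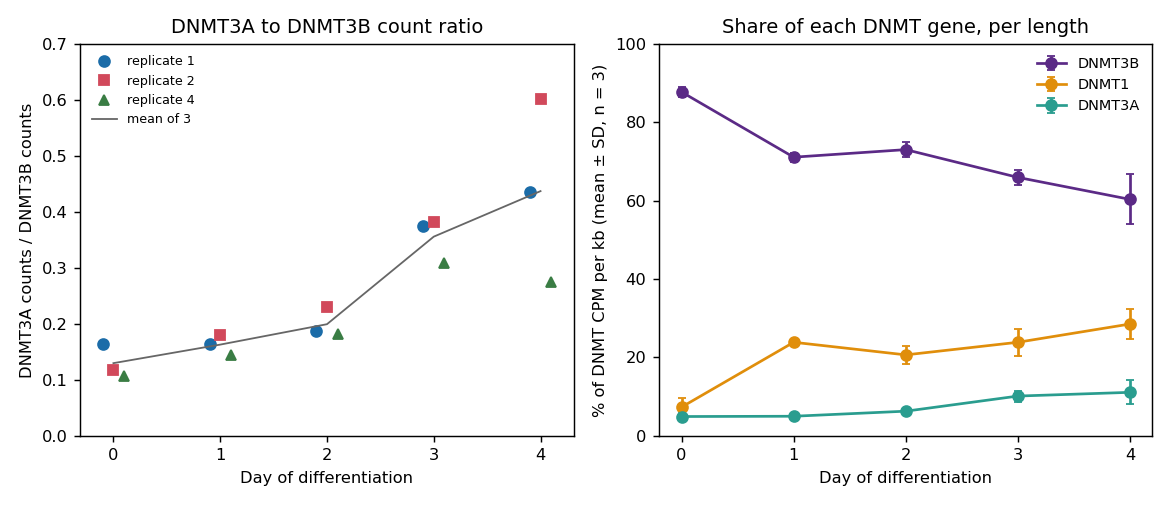
Left, ratio of DNMT3A to DNMT3B counts in each library by day (linear axis from 0), with a line through the mean of 3. Right, share of each DNMT gene in the family's summed level per kilobase, in percent (mean and SD of 3 libraries). The ratio is 0.275 to 0.602 on day 4 and 0.108 to 0.165 on day 0, and the share of DNMT3B is 60.3% on day 4 and 87.8% on day 0.

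UHRF1, which recruits DNMT1 to newly replicated DNA, had its highest mean on day 1 and its lowest on day 3. It was at 80.4, 91.9 and 178 CPM in the day 0 libraries, 195, 163 and 155 CPM on day 1 and 89.4, 84.9 and 97.1 CPM on day 2. On day 3 it was at 27.9, 40.1 and 38.0 CPM and on day 4 at 57.8, 36.3 and 70.7 CPM. Days 3 and 4 lay below every library of the earlier days, and day 0 overlapped with both day 1 and day 2. On day 3 UHRF1 fell to 35.3 ± 6.54 CPM, against 117 ± 53.5 CPM on day 0 (SD, n = 3 each), a log2 fold change of -1.73 (SE 0.33, adjusted p = 0.00106). On day 4 it averaged 54.9 ± 17.3 CPM, a log2 fold change of -1.09 against day 0 (SE 0.32, adjusted p = 0.0172). That last call depended on single libraries: the adjusted p was 0.124 without replicate 4 of day 0 and 0.108 without replicate 2 of day 4, and 0.0975 in a fit of these 2 days alone. On day 1 against day 0 the log2 fold change was 0.55 (adjusted p = 0.320), and without replicate 4 of day 0 it was 1.01 (adjusted p = 0.0397). On day 3 against day 2 it was -1.36 (adjusted p = 0.0595 in edgeR, 0.00626 in DESeq2, and 0.0311 in edgeR without replicate 4 of day 0).

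DNMT1, the maintenance methyltransferase itself, was not called in any comparison. It was at 98.5, 163 and 260 CPM in the day 0 libraries, 264, 254 and 242 CPM on day 1, 156, 143 and 214 CPM on day 2, 119, 92.2 and 177 CPM on day 3 and 112, 118 and 154 CPM on day 4. The day 0 libraries spanned almost the whole range of the later days, and the 3 libraries of day 1 were the closest together. The log2 fold change was 0.54 on day 1 against day 0 (SE 0.34, adjusted p = 0.349) and -0.44 on day 4 against day 0 (SE 0.34, adjusted p = 0.328), and the joint adjusted p over days was 0.107. The gene S1PR2, which overlaps DNMT1 on the same strand, averaged 7.43 CPM over all libraries. Across the 15 libraries the log2 levels of DNMT1 and UHRF1 had a Pearson r of 0.79, a description over libraries that share days and scaling.

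UHRF1 and DNMT1 are both known to be transcribed mainly in dividing cells, UHRF1 under E2F factors, which switch on S phase genes. Their start regions are shown because they held E2F letters, searched as TTTCCCGC, TTTGGCGC and TTTCGCGC on both strands in windows of 250 bases before to 50 after each RefSeq start. Such letters were present in 2.74% of 35116 windows of all genes, and in 3 of the 19 windows of the 8 matched members (DNMT3L had none), of which 2 belonged to UHRF1 and 1 to DNMT1. Below, from RefSeq on GRCh38.p14, the E2F letters are in capitals. The UHRF1 window lies at chr19:4909251-4909550 on the plus strand and the DNMT1 window at chr19:10194904-10195203 on the minus strand, each written along the gene's own strand.
UHRF1: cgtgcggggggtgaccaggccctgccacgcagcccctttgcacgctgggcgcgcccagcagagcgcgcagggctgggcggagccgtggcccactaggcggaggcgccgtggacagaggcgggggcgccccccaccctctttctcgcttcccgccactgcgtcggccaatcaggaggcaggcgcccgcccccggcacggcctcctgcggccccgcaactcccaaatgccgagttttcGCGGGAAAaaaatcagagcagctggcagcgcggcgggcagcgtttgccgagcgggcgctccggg
DNMT1: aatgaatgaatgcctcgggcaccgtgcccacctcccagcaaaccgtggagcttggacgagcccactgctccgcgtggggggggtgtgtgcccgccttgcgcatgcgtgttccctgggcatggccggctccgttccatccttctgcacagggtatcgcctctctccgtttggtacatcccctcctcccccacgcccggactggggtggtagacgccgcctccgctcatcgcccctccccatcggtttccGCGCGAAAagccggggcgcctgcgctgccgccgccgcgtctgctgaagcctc
Both windows read the letters on the opposite strand, GCGGGAAA beginning at position -14 from the start in UHRF1 and GCGCGAAA at -2 in DNMT1. They held 36 and 30 CG dinucleotides, where the median window of all genes held 14. A match of letters is a description and was not shown here to be bound.

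The summed level of the 30 genes of the S phase list, among them the MCM helicase subunits and the nucleotide-synthesis gene RRM2, was lowest on days 3 and 4, as that of UHRF1 was. The summed CPM was 99.9%, 73.8%, 33.8% and 39.6% of its day 0 mean on days 1, 2, 3 and 4. The level of UHRF1 was 146%, 77.4%, 30.2% and 47.0% of its own day 0 mean on those days, and that of DNMT1 was 146%, 98.3%, 74.3% and 73.7%. On day 3 against day 0, 23 of the 30 fell and none rose, where 16% of all genes were called lower. On day 4 against day 0, 19 fell and none rose, where 16.2% of all genes were called lower, and without replicate 2 of day 4 it was 12. RRM2 was at 65.2 CPM on day 4 and 296 CPM on day 0, a log2 fold change of -2.19 (adjusted p = 8.94e-04). Of the 30, 11 were not called on day 4 against day 0, and TYMS, picked here after its values were seen, was at 18.2, 41.2 and 63.1 CPM on day 4 against 24.7, 16.1 and 28.5 CPM on day 0. How far the share of cycling cells set the level of UHRF1 was not tested.

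**Figure D4:**
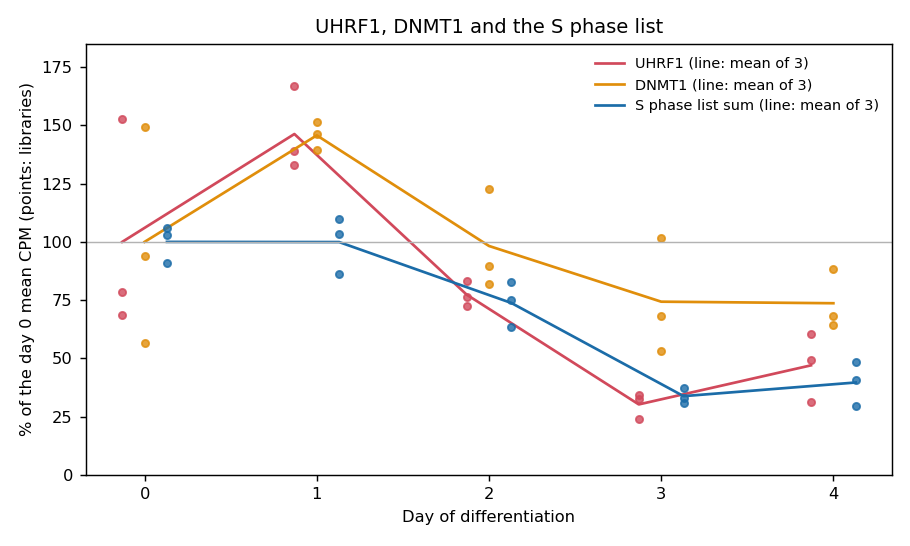
Level of UHRF1, DNMT1 and the summed S phase list by day, each as a percentage of its own day 0 mean CPM (vertical axis), with a point per library and a line through the mean of 3. UHRF1 and the S phase sum are at 30.2% and 33.8% on day 3, and DNMT1 is at 74.3%.

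Of the 3 erasers, TET2 was the one called. It was low on the first days, at 5.02, 4.63 and 2.28 CPM in the day 0 libraries and 4.49, 4.82 and 5.07 CPM on day 1. It was at 13.8, 15.9 and 9.65 CPM on day 2, 15.7, 20.9 and 7.86 CPM on day 3 and 16.2, 14.1 and 7.07 CPM on day 4. Every library of days 2 to 4 lay above every library of days 0 and 1, and replicate 4 was the lowest of its day on days 0, 2, 3 and 4. On day 2 TET2 rose to 13.1 ± 3.20 CPM, against 3.98 ± 1.48 CPM on day 0 (SD, n = 3 each), a log2 fold change of 1.72 (SE 0.43, adjusted p = 0.0100). On day 3 against day 0 it was 1.90 (SE 0.43, adjusted p = 0.00363) and on day 4 against day 0 it was 1.65 (SE 0.43, adjusted p = 0.00835), and these calls held in every alternative tried. On day 2 against day 1 the log2 fold change was 1.45 (SE 0.43, adjusted p = 0.0468). That call was lost without replicate 2 of day 0 (adjusted p = 0.0503), without replicate 1, 2 or 4 of day 1 (0.154, 0.127 and 0.105) or without replicate 1 or 2 of day 2 (0.105 and 0.150). TET2-AS1, annotated on the opposite strand of TET2, was not in the table, and since the use of strand is not stated its reads cannot be told apart from those of TET2.

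TET1, the TET enzyme known for high levels in pluripotent cells, was not called on any day. It was at 92.1, 146 and 86.2 CPM in the day 0 libraries, 67.0, 70.1 and 89.8 CPM on day 1, 104, 99.9 and 81.8 CPM on day 2, 169, 111 and 108 CPM on day 3 and 145, 88.5 and 69.8 CPM on day 4. Days overlapped widely, the log2 fold change on day 4 against day 0 was -0.10 (SE 0.31, adjusted p = 0.839), and the joint adjusted p over days was 0.330. TET3, which in the mouse is known for oxidising the paternal genome in the zygote, was at 28.2, 68.9 and 53.2 CPM on day 0, 51.8, 54.0 and 40.8 CPM on day 1, 48.1, 45.4 and 54.9 CPM on day 2, 87.5, 63.3 and 64.6 CPM on day 3 and 64.8, 57.5 and 48.7 CPM on day 4. Its day 0 libraries differed more among themselves than the daily means did, and its joint adjusted p was 0.428. The log2 ratio of TET1 to TET3 was 0.79 ± 0.30 over the 12 libraries of days 1 to 4 pooled (SD). On day 0 it was 1.16 ± 0.51 (SD, n = 3), a difference of -0.37 with an exact two-sided permutation p of 0.123.

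Per kilobase of exon, TET1 remained the predominant TET gene despite the rise of TET2. TET1 made up 64.4% of the family's summed level per kilobase on day 4, against 71.8% on day 0, and TET2 made up 4.70% on day 4, against 1.63% on day 0. The start regions of both genes are shown, since one changed and the other was not called, with CG dinucleotides in capitals. The TET2 window lies at chr4:105146626-105146925 and the TET1 window at chr10:68560087-68560386, both on the plus strand of GRCh38.p14, from RefSeq.
TET2: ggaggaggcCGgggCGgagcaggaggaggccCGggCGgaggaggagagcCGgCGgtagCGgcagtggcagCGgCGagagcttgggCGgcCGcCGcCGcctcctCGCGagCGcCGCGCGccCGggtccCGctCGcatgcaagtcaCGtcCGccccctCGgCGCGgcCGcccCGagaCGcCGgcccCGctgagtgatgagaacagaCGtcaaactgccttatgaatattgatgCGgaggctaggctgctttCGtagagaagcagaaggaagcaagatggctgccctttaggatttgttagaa
TET1: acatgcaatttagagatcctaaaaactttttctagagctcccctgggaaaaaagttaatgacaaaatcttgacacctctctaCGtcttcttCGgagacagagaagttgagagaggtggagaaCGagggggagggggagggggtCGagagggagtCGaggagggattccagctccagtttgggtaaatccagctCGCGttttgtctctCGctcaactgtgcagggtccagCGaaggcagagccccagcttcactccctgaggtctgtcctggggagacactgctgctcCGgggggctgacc
The TET2 window held 35 CG dinucleotides and the TET1 window 10. A second RefSeq start of TET2, at chr4:105145625-105145924, held 13, so the count depended on the start chosen, and gene counts do not say which start was used. None of the 5 windows of TET1 and TET2 held the E2F letters.

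TDG, the glycosylase that removes oxidised methylcytosine, was second to DNMT3B in mean level per kilobase on every day. It was at 248, 314 and 165 CPM in the day 0 libraries, 249, 247 and 197 CPM on day 1, 438, 290 and 138 CPM on day 2, 99.2, 155 and 90.9 CPM on day 3 and 159, 133 and 127 CPM on day 4. Day 2 was the most spread, with its replicates running from 138 to 438 CPM, and days 3 and 4 lay below every day 0 library. On day 3 TDG fell to 115 ± 35.1 CPM, against 242 ± 74.9 CPM on day 0 (SD, n = 3 each), a log2 fold change of -1.07 (SE 0.37, adjusted p = 0.0353). The call was lost without replicate 1 or 2 of day 0 (adjusted p = 0.0758 and 0.134), without replicate 1 or 4 of day 3 (0.117 and 0.113), and narrowly without replicate 1 or 2 of day 1 (0.0513 and 0.0502) or replicate 2 of day 2 (0.0510). Without replicate 1 of days 3 and 4 together, the libraries that stood apart in EOMES, CER1 and GATA6, it was 0.123. On day 4 against day 0 the log2 fold change was -0.80 (SE 0.37, adjusted p = 0.105). The joint call over days (adjusted p = 0.0370) was lost without any 1 of 11 libraries: replicate 1 or 2 of day 0, any library of day 1, replicate 1 or 2 of day 2, replicate 1 or 4 of day 3, and replicate 2 or 4 of day 4 (adjusted p = 0.0526 to 0.0929). A processed copy of TDG, TDGP1, is annotated elsewhere in the genome and was not in the table, so reads shared with it cannot be placed.

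Set in order per kilobase, the 9 genes kept much of their ranking while their levels drew closer. On day 4 the means were 51.2 CPM per kilobase for DNMT3B, 41.9 for TDG, 23.5 for DNMT1, 10.9 for TET1, 10.7 for UHRF1, 8.85 for DNMT3A, 4.97 for TET3, 0.792 for TET2 and 0.0372 for DNMT3L. On day 0 they were 369 for DNMT3B, 72.8 for TDG, 31.9 for DNMT1, 22.7 for UHRF1, 20.1 for DNMT3A, 11.6 for TET1, 4.37 for TET3, 0.253 for TET2 and 0.0420 for DNMT3L. On day 4 the libraries of DNMT3B, at 35.0 to 68.8 CPM per kilobase, overlapped with those of TDG, at 38.1 to 47.7. On that day those of TET1, UHRF1 and DNMT3A overlapped as well, so the order within these groups is not resolved.

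The genes with the most similar profile over the 15 libraries, by Pearson r of log2(CPM + 1), are given as a description, since libraries of a day share their treatment. For UHRF1 the closest was FEN1, a flap endonuclease of DNA replication and a member of the S phase list (r = 0.97), followed by GPRIN1 and SDC1 (r = 0.96 each). For DNMT1 it was TCOF1, a nucleolar factor of ribosomal RNA synthesis (r = 0.99), then ARIH2 (0.97) and EIF3B (0.96). For DNMT3B it was ATP10A (0.98), then D4S234E (0.97) and C3orf72 (0.96). For TET2 it was CTBS (0.99), then ZNF83 (0.98) and PLOD2 (0.97). TDG was closest to L3MBTL3 and PNRC2 (0.95 each), TET1 to ABI2 (0.93) and TET3 to CECR2 (0.93). The closest gene to DNMT3A, FAM5B (0.98), averaged only 0.303 CPM. Among the members themselves, DNMT3A and DNMT3B had r = 0.83 and DNMT3B and TET2 had r = -0.81, n = 15 libraries.

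The partners of these enzymes were read from lists set by function, with earlier results of these data known. Of 14 partners of maintenance methylation, 5 fell and 1 rose on day 4 against day 0, where 16.2% and 18% of all genes did. The 4 with the largest fall were CDCA7L (log2 fold change -1.86), the histone methyltransferase SUV39H2 (-1.77), CDCA7 (-1.74), a partner of the remodeller HELLS, and the replication clamp PCNA (-1.73). CDCA7L was no longer called without replicate 2 or 4 of day 4 (adjusted p = 0.0610 and 0.0561), nor was SUV39H2 (0.0859 and 0.0831), which was also lost without replicate 1 or 2 of day 0 (0.0600 and 0.0604). Without replicate 1 of day 4 their log2 fold changes were -2.60 and -2.41. Without replicate 2 or replicate 4 of day 4, 3 of the 14 fell, and the 1 rise was lost without replicate 1 or 2 of day 0, any library of day 1 or day 4, replicate 1 or 2 of day 2, or replicate 1 of day 3. On day 1 against day 0, DPPA3, which in the mouse keeps UHRF1 off chromatin, fell, at 0.209 CPM on day 1 and 2.89 CPM on day 0 (log2 fold change -3.80, adjusted p = 0.00670, and -2.67 without replicate 1 of day 0). The fall did not last, with means of 1.15, 1.27 and 3.11 CPM on days 2, 3 and 4.

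Of 19 chromatin proteins that guide or repel the de novo enzymes, 3 fell and 1 rose on day 4 against day 0, a smaller share than the 34.2% of all genes called. DPPA4, which with DPPA2 protects certain promoters from methylation in mouse embryonic stem cells, fell already on day 1. It was at 196 CPM on day 1 and 747 CPM on day 0 (log2 fold change -1.93, adjusted p = 2.15e-04), and at 112 CPM on day 4 (log2 fold change -2.73 against day 0). BEND3 fell by 2.37 on the log2 scale on day 4 against day 0. QSER1, known from human embryonic stem cells to guard CG-rich regions against DNMT3 enzymes, was at 231, 58.6 and 62.9 CPM on day 4 against 323, 471 and 173 CPM on day 0. These groups overlap through replicate 1 of day 4, and the log2 fold change was -1.45 (adjusted p = 0.0419) with all libraries and -2.34 (adjusted p = 0.00195) without that library. The call was lost without replicate 1 or 2 of day 0, any library of day 1, replicate 2 of day 2, or replicate 2 or 4 of day 4 (adjusted p = 0.0508 to 0.156). The histone H3 lysine 36 methyltransferase WHSC1, also called NSD2, was at 275 CPM on day 4 and 136 CPM on day 0 (log2 fold change 1.02, adjusted p = 0.0178), a call that was lost without replicate 2 or 4 of day 4. Without replicate 4 of day 0, 3 of the 19 rose, and without replicate 1 of day 4, 2 did.

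Of 20 tested genes of demethylation and base excision repair, 3 rose and 2 fell on day 4 against day 0, where 18% and 16.2% of all genes did, and without replicate 4 of day 0, 5 rose. The 3 that rose were the GADD45 genes, stress-inducible factors that have been linked to active demethylation. GADD45B was at 39.6 CPM on day 4 and 1.94 CPM on day 0 (log2 fold change 4.35, adjusted p = 0.00116, and 3.43 without replicate 4 of day 4), and it was already at 21.3 CPM on day 1. The call of GADD45G was lost without replicate 1 or 2 of day 0 or replicate 2 of day 4 (adjusted p = 0.0881, 0.0866 and 0.120). GADD45A was at 174 CPM on day 4 and 26.6 CPM on day 0 (log2 fold change 2.71, adjusted p = 0.00116). UNG, the uracil glycosylase, fell by 1.67 on the log2 scale. A list of readers of methylated CG sites and their relatives held 9 genes, not all of which are known to bind methylated CG. Of these 9, 4 rose on day 4 against day 0 and none fell, where 18% of all genes were called higher. The 4 were ZBTB4 (log2 fold change 2.04), MBD6 (1.60), MBD5 (1.24) and MBD1 (1.10), the last lost without replicate 2 of day 4 (adjusted p = 0.0596). Without replicate 4 of day 0, day 2 or day 3, or without replicate 1 of day 4, 1 of the 9 fell. ZBTB38, also on this list, was highest on day 1, at 99.3 CPM against 19.5 CPM on day 0 (log2 fold change 2.35, adjusted p = 3.00e-04), and was at 40.1 CPM on day 2.

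The enzymes draw on metabolism for the methyl donor S-adenosylmethionine and for 2-oxoglutarate, a substrate of the TET reaction. Of 22 tested genes of methyl donor supply, 7 fell and 2 rose on day 4 against day 0, where 16.2% and 18% of all genes did. MAT2A, which makes S-adenosylmethionine in most tissues, was at 60.5 CPM on day 4 and 479 CPM on day 0 (log2 fold change -2.98, adjusted p = 0.00327, and -3.74 without replicate 1 of day 4). AMD1, which diverts it to polyamines, fell by 2.24 on the log2 scale, and FOLR1, a folate receptor, was at 5.47 CPM on day 4 and 0.247 CPM on day 0 (log2 fold change 4.46, adjusted p = 3.41e-05). The list of TET cofactor supply held genes for 2-oxoglutarate and its competitors, with the transporters SLC23A1 and SLC23A2. Of its 16 genes, 5 fell and none rose on day 4 against day 0, where 16.2% of all genes were called lower and 18% higher. The largest falls were those of SDHD (-1.59, and -0.99 without replicate 1 of day 0) and IDH3A (-1.28), whose call was lost without replicate 1 or 2 of day 0 or replicate 2 or 4 of day 4 (adjusted p = 0.0591 to 0.122). With single libraries of day 0 or day 4 left out, 1 to 5 of these 16 fell: 3 without replicate 1 of day 0, 2 without replicate 2 of day 0, 1 without replicate 2 of day 4 and 2 without replicate 4 of day 4. Without replicate 4 of day 0, 2 rose, and without replicate 1 of day 4, 1 did.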

How the data were processed

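Each of the 15 libraries of polyA-selected RNA, strand-specific per the labels' protocols, gave a column of counts deposited by the authors: whole numbers per gene symbol, not normalized. The submitters' processing notes name TopHat2 2.0.14 and the build hg19. Which program and annotation gave the counts, and whether strand was used, is not given in the sources used here, and no deposited count was odd. The table had 23398 entries. Of 52 repeats of a symbol, 44 were identical and dropped and 8 were summed, which left 23346 symbols. Totals ran between 54723184 and 145857940 counts, and a floor of 3 counts covers counting error only. Groups and replicate numbers came from the sample titles.

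Counts were tested with edgeR 4.0.16 (glmQLFit and glmQLFTest, limma 3.58.1, R 4.3.3), with TMM scaling, filterByExpr by day (17401 genes kept), and 1 model of the 5 day means over all libraries. The biological coefficient of variation was 45.6%. The SE of a log2 fold change was its size divided by the square root of F. Ratios used counts plus 0.5 and exact permutation of libraries. Alternatives were DESeq2 1.42.0, its size factors, library totals, no filter, fits of the days compared alone, a replicate block, each library left out, replicate 1 of days 3 and 4 left out, and, chosen after seeing the data, counts divided by 2. The edgeR fit was also run on simulated counts with known changes, drawn independently for each library. Such counts hold no correlation by replicate number and no library standing apart, so they do not cover those features. Exon lengths came from GENCODE on GRCh38, which is not the authors' build, and promoter windows from RefSeq. Named genes were all members, up to 4 called genes with the largest change per list and comparison, and the 3 genes most like each member, of which the text gives a selection. The members and lists were chosen with earlier results of these data known. A list of germline genes is given in the closing section.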

Additional observations from a re-analysis of the deposited data

How the results depend on the processing

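The falls of DNMT3B and DNMT3A on days 1 to 4 and the rise of TET2 on days 2 to 4 against day 0 kept their direction under every alternative, and kept their call except DNMT3A on day 3 against day 0 in a fit of these days alone (adjusted p = 0.0557). No result reversed. Replicate numbers were not taken to pair the libraries in the main fit, since the labels do not state a pairing. Over 30 pairs of same-numbered libraries, the correlation of deviations from the day means ran from -0.409 to 0.779, with 22 over 0.1. Of 15 libraries, 11 correlated best with their own number. That is a hint of pairing from the data and not from the design, and the main fit leaves it out. With a replicate block edgeR called 2913 genes on day 1 against day 0, 2466 on day 2 against day 1 (1 member lower, UHRF1) and 590 on day 3 against day 2 (2 members lower, UHRF1 with adjusted p = 0.0220 and TDG with 0.0316), DNMT1 passed jointly (adjusted p = 0.0172), TDG passed on day 4 against day 0 (0.0483), and the DNMT3A to DNMT3B ratio had an exact permutation p of 0.0400. DESeq2 called 2824, 2427 and 948 genes in those 3 comparisons, with 2 members lower in the last, and 70 on day 4 against day 3. With only the libraries of the days compared, edgeR called 3737 genes on day 3 against day 0 (2 members lower), 2814 on day 2 against day 1 (1 member lower, UHRF1) and 0 on day 3 against day 2. Without replicate 1 of days 3 and 4 it called 68 on day 3 against day 2. With library totals no member was higher on day 2 against day 1, so 0 against 1. With 1 library left out, edgeR called 1036 to 2639 genes on day 1 against day 0, against 1806 with all libraries, 2327 to 3864 on day 2, 4538 to 6293 on day 3 and 4051 to 6640 on day 4 against day 0, and 612 to 1629 on day 2 against day 1, 5 to 247 on day 3 against day 2 and 0 to 1 on day 4 against day 3. Jointly it called 5189 to 7040. Members higher were 0 to 1 on day 1 against day 0 and on day 2 against day 1, members lower were 3 to 4 on day 3 and 2 to 3 on day 4 against day 0 and 0 to 1 on day 3 against day 2, and 4 to 5 were called jointly. The log2 difference in the DNMT3A to DNMT3B ratio ran from 0.919 to 1.23 and that in the TET1 to TET3 ratio from -0.602 to -0.0977. The cause of these shifts was not tested. Each day had 3 libraries, and DNMT3L had at most 20 counts in a library.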

Other observations

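Germline genes whose promoters are known to be methylated in somatic cells formed a list of 22, of which 11 passed the filter on low counts, so nothing is said of the other 11. On day 4 against day 0, 5 of the 11 tested fell and 1 rose, and without replicate 1 or replicate 2 of day 4, 3 fell. The filter kept genes with enough counts in as few as 3 libraries. A gene kept through day 0 and near 0 CPM later, as SYCP1 was, could only fall. The count of falls is therefore not read against the 16.2% of all genes called lower (18% were called higher). Without replicate 4 of day 0, 2 rose. DAZL, an RNA-binding protein of germ cells, was at 0.0711 CPM on day 4 and 5.60 CPM on day 0 (log2 fold change -6.22, adjusted p = 2.26e-04, and -5.62 without replicate 1 of day 0), and it was already at 0.544 CPM on day 1. SYCP1, of the synaptonemal complex, had no count in any day 4 library and 0.805 CPM on day 0. BRDT, a testis bromodomain protein, went the other way, at 6.14 CPM on day 4 and 0.0771 CPM on day 0 (log2 fold change 6.30, adjusted p = 2.20e-05), with 1.71 CPM on day 1 and 8.84 CPM on day 3. Its day 4 libraries were at 12.8, 2.58 and 3.07 CPM, and without replicate 1 of day 4 the log2 fold change was 5.25.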
